A study of Mus musculus with 9 samples.

Results

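The tumour suppressor p53 was followed as a set of 32 genes: Trp53 itself, its inhibitors, and genes listed as its targets. The targets act in feedback, cell cycle arrest, nutrient and redox control, DNA repair and cell death. Whether p53 controls them in these cells was not tested. The members were found by symbol among the 45361 genes of the count table. The RNA came from cultured CH12F3, B-lymphoma cells of the mouse that can switch immunoglobulin class. All cells, controls included, carried a Ligase4 knockout and were stimulated for 24 h with anti-CD40 together with IL-4 and TGF-β. Of 9 libraries, 3 were from DMSO controls, 3 from cells with tazemetostat, which blocks the histone methyltransferase EZH2, and 3 from cells with valemetostat, which blocks both EZH1 and EZH2. The series asks how transcription changes after either inhibitor. No source used here gives the inhibitor doses, the length of inhibitor treatment or whether the knockout line is 1 clone. Cells with intact Ligase4 and unstimulated cells were not analysed here, so every value below is from stimulated knockout cells.

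The p53 protein is a transcription factor that accumulates when DNA is broken, because damage kinases release it from MDM2 and MDM4. MDM2 marks p53 for degradation and MDM4 blocks its activation domain, and Mdm2 is itself a p53 target, which closes a feedback loop. Ligase4 seals breaks in classical end joining, and switching B cells make breaks at their immunoglobulin loci. p53 binds a pair of half-sites near its targets, and much of its control is over protein level and modification, which RNA levels do not show.

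Library totals ran from 34080504 to 46675110 counts. The targeted gene, Lig4, had 21 to 59 counts per library, and since no source used here gives the deleted part, these do not check the genotype. B cell markers were high in every library, with a summed level of 8370 to 8890 TPM (transcript abundance per length, scaled to a common total) in DMSO, 9580 to 9780 with tazemetostat and 9540 to 9930 with valemetostat. The 6 T cell markers summed to 15.4 to 22.6 TPM in DMSO, 15.2 to 16.3 with tazemetostat and 15.9 to 22.9 with valemetostat. Most of each sum was Cd5, with means of 15.5, 14.5 and 14.9 TPM. Cd3d reached 4.76 TPM in DMSO 3 and 7.11 in valemetostat 2, on 16 and 14 counts. The 6 myeloid markers summed to 12.2 to 16.1, 12.8 to 13.6 and 12.9 to 14.5 TPM, with S100a8 at 0. Single myeloid markers moved with the groups: Lyz2 had 0 to 2 counts per DMSO library and 21 to 63 per inhibitor library, and was called higher with both (edgeR adjusted p = 3.99e-07 and 4.35e-07). Adgre1 rose by 1.56 ± 0.15 and 1.33 ± 0.15 on the log2 scale, and Csf1r fell by 0.41 ± 0.08 and 0.46 ± 0.08. Their part in the members' values was not tested. Sums were 0.85 to 2.74 over 3 erythroid markers, and 0.65 to 1.36 over 6 stromal, endothelial and epithelial markers, with Col1a2 at 0. Across 8948 genes, a library's deviation from the mean of all libraries was correlated with transcript length by Spearman's rho of 0.21 to 0.49 in DMSO, -0.45 to -0.01 with tazemetostat and -0.46 to -0.24 with valemetostat. This gradient moves with the groups, so values fitted with an offset for length and GC content are given below where a call changes with it. In bulk RNA, fewer cells expressing a gene and less RNA per cell cannot be told apart.

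The promoters of the members were searched for single p53 half-sites, of which p53 binds a pair. RefSeq windows on GRCm38.p6, from 250 bases before to 50 after a start, were found for 25 of the 32 members. The p53 half-site consensus, 10 letters that are their own reverse complement, was searched in its standard form and matched in 10 of 25 members (40.0%) against 2582 of 27025 genes (9.55%). Counted by window, it matched 11 of 30 member windows (36.7%) and 2745 of 32851 windows in all (8.36%). Member windows held a median of 21.5 CpG dinucleotides and all windows 7, and the part of base composition in this difference was not tested. A match is a single stretch of letters, and whether p53 binds it was not tested. Pairs of half-sites and sites outside the windows were not searched. Members with a match were called higher with both inhibitors (Ccng1 and Ei24), lower with both (Sesn1) or not called with either (Aen, Ckap2, Gadd45a, Mdm2, Polk, Ppm1d and Trp53). Of these, 1 window is shown for each kind of result, together with that of Trp53, with the half-site in capitals. Ccng1 lies on the minus strand at chr11:40755432-40755501, Sesn1 on the plus strand at chr10:41887236-41887305, Mdm2 on the minus strand at chr10:117710905-117710974 and Trp53 on the plus strand at chr11:69580254-69580323. Each stretch is upstream of the start, with the half-site beginning at base -185, -173, -186 and -75 from it.
Ccng1: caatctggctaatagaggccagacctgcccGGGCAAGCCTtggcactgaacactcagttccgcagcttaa
Sesn1: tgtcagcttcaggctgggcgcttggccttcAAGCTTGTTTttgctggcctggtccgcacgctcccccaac
Mdm2: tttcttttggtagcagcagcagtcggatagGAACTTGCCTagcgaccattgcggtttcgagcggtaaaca
Trp53: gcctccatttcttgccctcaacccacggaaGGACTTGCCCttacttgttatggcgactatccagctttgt

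Members of the p53 set were called in both directions with either inhibitor, and Trp53 itself was not called. Of the 32 members, 29 passed the filter on low counts. With tazemetostat 6 were called higher, where 19.9% of all 12580 genes tested were, and 8 lower, where 18.2% of all genes were. A call is an adjusted p under 0.05 in edgeR's quasi-likelihood test with Benjamini-Hochberg adjustment over all 12580 genes. With valemetostat 5 were called higher (20.5% of all genes) and 4 lower (18.7% of all genes). In either direction, that is 48.3% of tested members with tazemetostat and 31% with valemetostat, beside 38.1% and 39.2% of all genes. These shares lie near and on both sides of the background, and the members' median log2 fold changes of 0.00 and 0.01 equal those of all genes, 0.00 and 0.01. On the log2 scale, fold changes ran from -0.66 to 0.54 with tazemetostat and from -0.71 to 0.60 with valemetostat, so no tested member changed by 1 or more. The libraries of a group and of DMSO did not overlap for 16 of 29 members with tazemetostat (47.4% of all genes) and 12 with valemetostat (48.5% of all genes). Leaving out 1 library gave 4 to 7 members lower with tazemetostat, with 4 left without tazemetostat 3 and 5 without DMSO 2. All genes lost lower calls there too, to shares of 13.9% and 14%. With the length and GC offset 7 members were higher and 6 lower with tazemetostat and 7 higher and 7 lower with valemetostat. The matching shares of all genes were 19.3% and 19.2%, and 19% and 19.6%. On the deposited log2(TPM + 1) values limma called 3 higher and 6 lower with tazemetostat and 3 higher and 5 lower with valemetostat. Shares of all genes there were 9.36% and 15.5%, and 9.47% and 16.8%. Both comparisons use the same 3 DMSO libraries, so a gene's values in them are not independent.

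**Figure D1:**
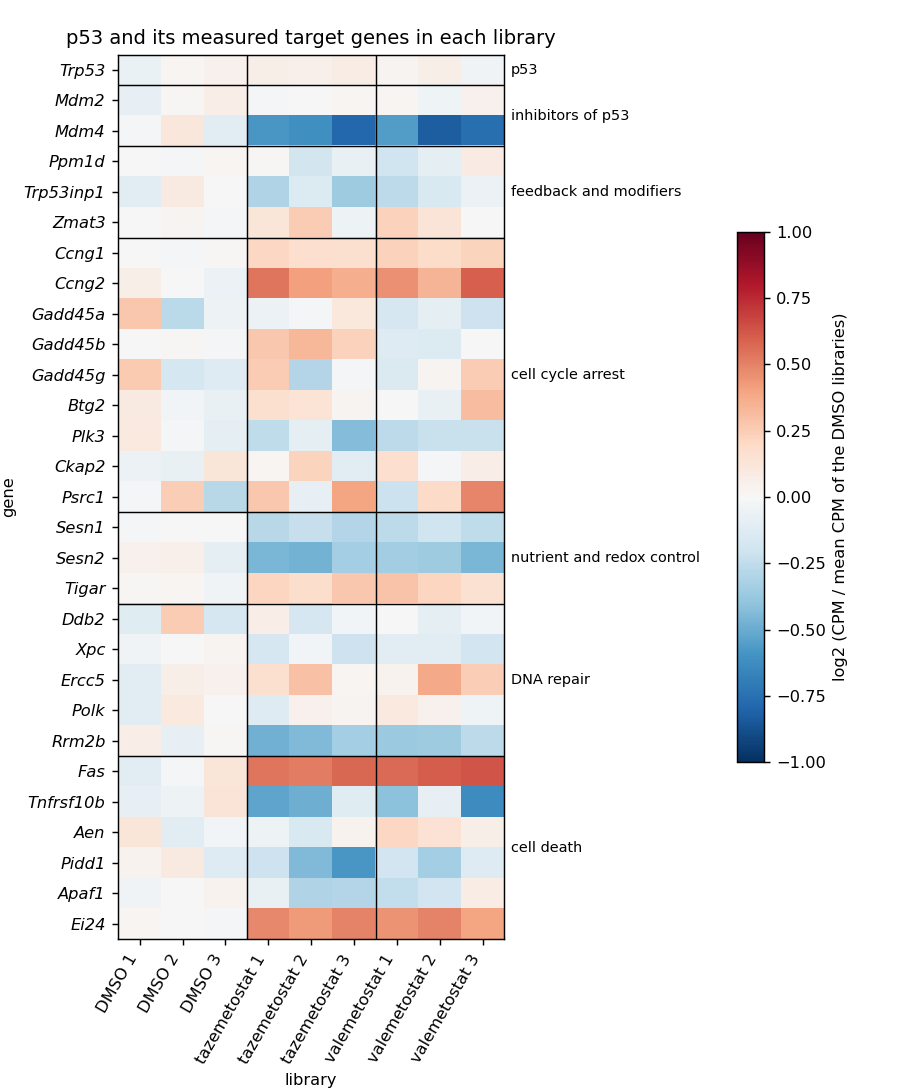
Colour gives the log2 ratio of each library's CPM (counts relative to library size) to the mean of the 3 DMSO libraries, for the 29 tested members in rows by role and the 9 libraries in columns. Red rows such as Fas, Ei24 and Ccng2 and blue rows such as Mdm4, Sesn2 and Rrm2b are seen in all 6 inhibitor libraries, while the Trp53 and Mdm2 rows stay near white.

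Trp53 was at 260, 276 and 280 CPM (counts relative to library size, with TMM factors) in DMSO, 284, 282 and 286 with tazemetostat and 277, 284 and 266 with valemetostat. The tazemetostat libraries all lie just above the DMSO libraries and the valemetostat libraries lie within their range or just above it. On the log2 scale Trp53 differed by 0.06 ± 0.04 (SE; 95% interval -0.03 to 0.15) with tazemetostat and by 0.02 ± 0.04 (-0.07 to 0.11) with valemetostat (edgeR adjusted p = 0.275 and 0.758, neither called). Per transcript length Trp53 had the highest level of the set, 230 ± 11.2 TPM in DMSO (SD, n = 3), followed by Fas at 85.7 ± 3.97 and Gadd45b at 77.2 ± 2.11. The processed pseudogene Trp53-ps had 0 to 3 counts per library.

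The inhibitors of p53 parted: Mdm4 fell with both compounds and Mdm2 was not called on counts. Mdm4 was at 153, 167 and 143 CPM in DMSO, 103, 101 and 89.7 with tazemetostat and 105, 87 and 91.6 with valemetostat. All 6 inhibitor libraries lie below all 3 DMSO libraries. It was the member with the largest change in either direction, a log2 change of -0.66 ± 0.07 (a ratio of 0.63) with tazemetostat and of -0.71 ± 0.07 (0.61) with valemetostat (edgeR adjusted p = 4.58e-07 and 1.76e-07). The Mdm4 transcript is long, 7105 nt, and with the length and GC offset the changes were -0.57 and -0.59 (edgeR adjusted p = 4.53e-10 and 3e-10). Across all 15 alternative settings its call held in both comparisons.

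Mdm2, both the main negative regulator of p53 and a target of it, was at 51.2, 54.8 and 56.7 CPM in DMSO, 53.9, 54.4 and 54.9 with tazemetostat and 55, 52.6 and 56 with valemetostat. The groups overlap fully. The log2 difference was 0.01 ± 0.06 (-0.11 to 0.13) with either inhibitor (edgeR adjusted p = 0.953 and 0.913). The deposited TPM values go the other way: Mdm2 averaged 33.7 ± 3.53 TPM in DMSO, 28 ± 0.552 with tazemetostat and 28.1 ± 0.918 with valemetostat (SD, n = 3 each). On the log2(TPM + 1) scale the difference was -0.25 with both (limma adjusted p = 0.0369 with each). The median of all genes on that scale was -0.07 with each, against 0.00 and 0.01 on counts. The Mdm2 result thus depends on which deposited values, with their own test, are read.

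On the TPM scale the order of the pair changed. Mdm2 was above Mdm4 in 1 of 3 DMSO libraries, with a mean ratio of 0.907 ± 0.2 (SD), and in 3 of 3 libraries with each inhibitor, with mean ratios of 1.26 ± 0.12 and 1.29 ± 0.11. The ratio within a library shows unequal change of the 2 genes, and the DMSO values of the pair are within their spread of each other.

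**Figure D2:**
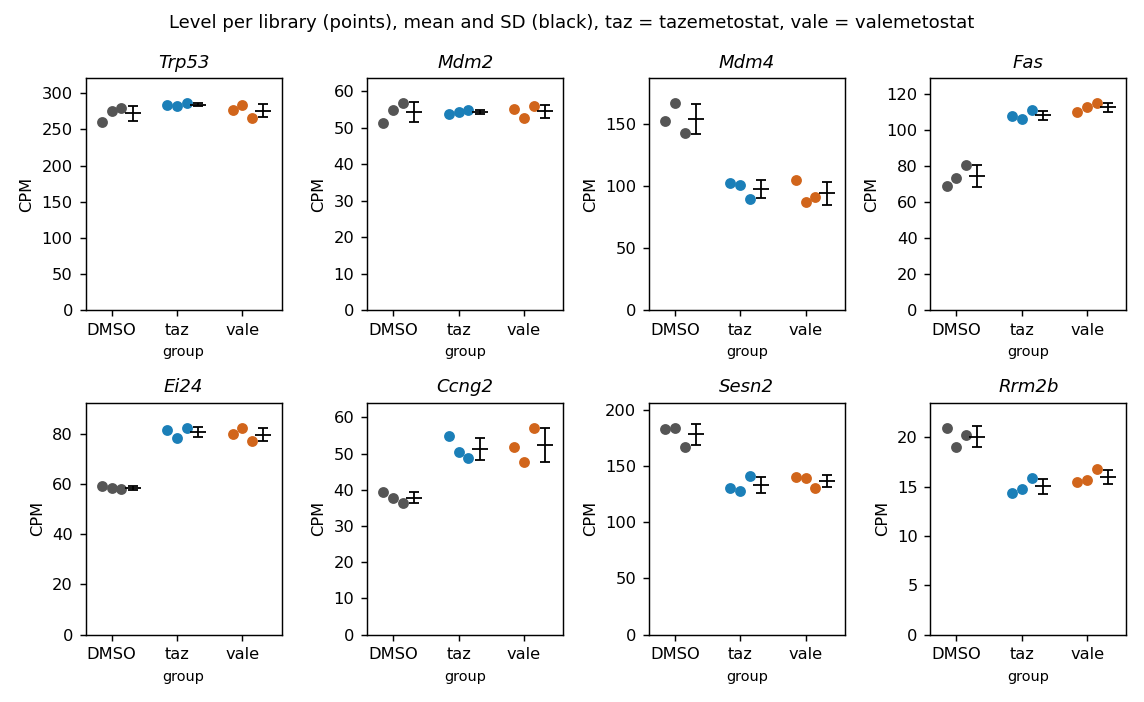
CPM of 8 members in every library (points, 3 per group), with the mean and SD of each group in black, on axes that start at 0. Trp53 and Mdm2 overlap or nearly overlap across groups, Fas, Ei24 and Ccng2 are higher in all inhibitor libraries than in all DMSO libraries, and Mdm4, Sesn2 and Rrm2b are lower.

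Of the other feedback genes and modifiers, 1 of 3 tested members was called. Trp53inp1, whose protein promotes p53 phosphorylation and autophagy, was at 15.4, 17.6 and 16.6 CPM in DMSO, 13.4, 15 and 12.9 with tazemetostat and 13.8, 14.9 and 15.9 with valemetostat. Its tazemetostat libraries lie below DMSO by a small gap, and its valemetostat libraries reach into the DMSO range. It fell with tazemetostat by 0.26 ± 0.10 on the log2 scale (edgeR adjusted p = 0.0346) and differed by -0.15 ± 0.10 with valemetostat (edgeR adjusted p = 0.225). The call held in 8 of 15 alternatives and was lost with the length and GC offset (edgeR adjusted p = 0.101), and without DMSO 2, DMSO 3, tazemetostat 1 or tazemetostat 3 (0.135, 0.0641, 0.101 and 0.149). Ppm1d, the phosphatase that dephosphorylates p53, differed by -0.08 ± 0.07 and -0.07 ± 0.07, neither passing the test. Zmat3, an RNA-binding p53 target, differed by 0.11 ± 0.07 and 0.12 ± 0.07, which did not pass in the fit as reported but did with the length and GC offset, at 0.22 and 0.27 (edgeR adjusted p = 0.00243 and 0.000393). Without tazemetostat 3, Zmat3 was also called with tazemetostat (edgeR adjusted p = 0.0222). Phlda3, which restrains AKT, had 0 counts in all 9 libraries.

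Among the 9 cell cycle members, 3 rose and 1 fell with tazemetostat and 2 rose with valemetostat. Both G-type cyclins rose. Ccng1, a p53 target that works with phosphatase 2A, was at 79.7, 78.5 and 80.2 CPM in DMSO, 91.5, 89.2 and 88.9 with tazemetostat and 93.4, 90.3 and 92.9 with valemetostat. Each group is tight and the inhibitor libraries are all higher than DMSO, by 0.18 ± 0.05 and 0.21 ± 0.05 on the log2 scale (edgeR adjusted p = 0.00475 and 0.00087). Ccng2, its relative, was at 39.4, 37.8 and 36.3 CPM in DMSO, 54.8, 50.4 and 48.7 with tazemetostat and 51.9, 47.8 and 57.2 with valemetostat. Again no inhibitor library reached down to DMSO, and Ccng2 rose by 0.44 ± 0.07 and 0.47 ± 0.07 (edgeR adjusted p = 1.52e-05 and 6.69e-06). Ccng2 was called in all 15 alternatives of both comparisons. Ccng1 was called in 14 and lost on log2(TPM + 1) values, at 0.10 and 0.13 (limma adjusted p = 0.244 and 0.122). Per length Ccng1 stayed above Ccng2 in all 9 libraries, with a mean TPM ratio of 1.53 ± 0.028 in DMSO, 1.29 ± 0.048 with tazemetostat and 1.33 ± 0.11 with valemetostat (SD).

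The Gadd45 genes encode small stress proteins that bind CDK1 and activate p38 and JNK signalling. Gadd45b rose with tazemetostat and not with valemetostat. It was at 59.3, 59.6 and 58.1 CPM in DMSO, 71, 74.3 and 69.4 with tazemetostat and 53.9, 53.8 and 58.7 with valemetostat. The tazemetostat libraries stand above both other groups, and 1 valemetostat library lies within the DMSO range. The log2 change was 0.28 ± 0.06 with tazemetostat (edgeR adjusted p = 0.000286) and the difference -0.09 ± 0.06 with valemetostat (edgeR adjusted p = 0.224). With the length and GC offset Gadd45b also passed as lower with valemetostat, by a difference of -0.20 (edgeR adjusted p = 0.00494), as it did on log2(TPM + 1) values, at -0.19 (limma adjusted p = 0.0467). On that scale the tazemetostat call was lost, at 0.18 (limma adjusted p = 0.0596).

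Gadd45a differed by 0.00 ± 0.11 and -0.16 ± 0.11, and Gadd45g by 0.00 ± 0.17 and 0.05 ± 0.17, and neither was called. The length and GC offset made Gadd45a a lower call with valemetostat, with a difference of -0.30 (edgeR adjusted p = 0.0241). Exons of Gadd45a overlap those of E230016M11Rik on the opposite strand, so its value is uncertain. The order of the 3 genes per length was Gadd45b, Gadd45g, Gadd45a in all 9 libraries, with Gadd45b at 3.49 ± 0.61 times Gadd45a in DMSO, 4.14 ± 0.3 with tazemetostat and 3.73 ± 0.46 with valemetostat (mean and SD of the TPM ratio).

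**Figure D3:**
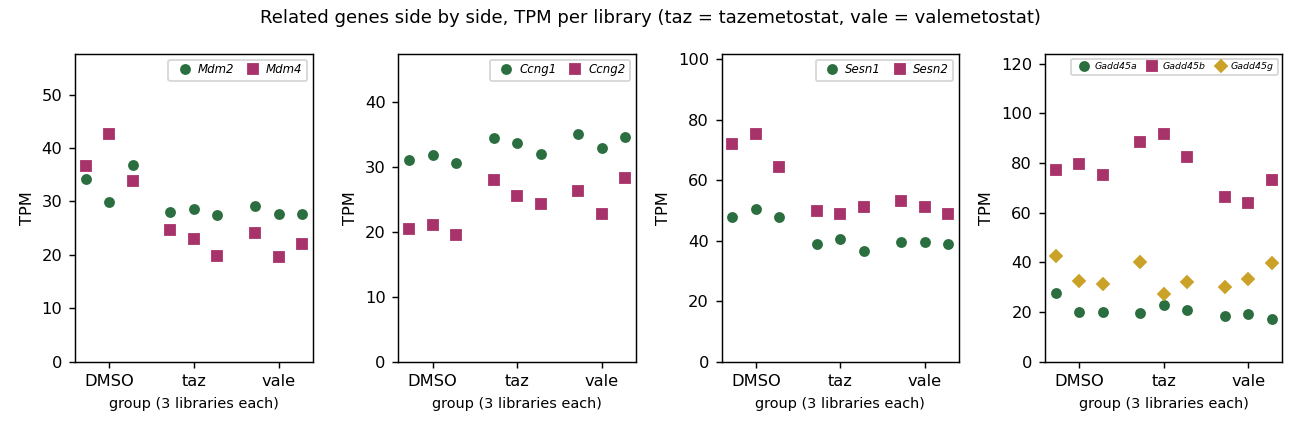
TPM of related members in each of the 9 libraries, on axes that start at 0, for Mdm2 and Mdm4, Ccng1 and Ccng2, Sesn1 and Sesn2, and the 3 Gadd45 genes. Mdm2 and Mdm4 cross within DMSO and are ordered in all inhibitor libraries, while in the other panels the order is the same in all 9 libraries.

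Plk3, a stress-responsive polo-like kinase, was at 17.6, 16.3 and 15.5 CPM in DMSO, 13.8, 15.5 and 12.2 with tazemetostat and 13.7, 14.1 and 14.1 with valemetostat. Libraries of either inhibitor do not pass the lowest DMSO library, but the gap is small with tazemetostat. It fell by 0.25 ± 0.10 with tazemetostat (edgeR adjusted p = 0.0472) and differed by -0.24 ± 0.10 with valemetostat, just short of a call (edgeR adjusted p = 0.0545). The tazemetostat call held in 6 of 15 alternatives, and was lost without DMSO 1, DMSO 2, tazemetostat 1 or tazemetostat 3 (edgeR adjusted p = 0.168, 0.0811, 0.0982 and 0.261). With valemetostat a call was made in 3 of 15, among them without DMSO 3 (edgeR adjusted p = 0.0442) and with the length and GC offset, at -0.26 (0.0326). Plk3 shares exon sequence with Tctex1d4 on the opposite strand, and no source used here says whether the counting used strand, so its value is uncertain. Btg2, an antiproliferative target, differed by 0.11 ± 0.08 and 0.09 ± 0.08. The mitotic spindle genes Ckap2 and Psrc1 differed by 0.06 ± 0.08 and 0.08 ± 0.08, and by 0.21 ± 0.17 and 0.18 ± 0.17. None of these 3 was called.

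In the nutrient and redox group all 3 members were called with both inhibitors: the sestrins fell and Tigar rose. Sestrins restrain mTORC1 and take part in antioxidant defence. Sesn1 was at 92.6, 93.9 and 93.8 CPM in DMSO, 76.9, 79.6 and 76.3 with tazemetostat and 77.8, 81.2 and 78.5 with valemetostat. The groups are tight and separate, with changes of -0.27 ± 0.05 and -0.24 ± 0.05 on the log2 scale (edgeR adjusted p = 0.000102 and 0.000351). Sesn2 was at 183, 184 and 167 CPM in DMSO, 130, 128 and 141 with tazemetostat and 140, 139 and 130 with valemetostat. It fell further, by 0.42 ± 0.05 and 0.39 ± 0.05 (edgeR adjusted p = 2.36e-07 and 8.89e-07), and no inhibitor library reached the lowest DMSO library. Both sestrin calls held in all 15 alternatives of both comparisons. Per length Sesn2 stayed above Sesn1 in all 9 libraries, at a mean TPM ratio of 1.45 ± 0.084 in DMSO, 1.29 ± 0.096 with tazemetostat and 1.29 ± 0.043 with valemetostat (SD).

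Tigar, which lowers fructose-2,6-bisphosphate and so slows glycolysis, was at 17.1, 17.2 and 16.5 CPM in DMSO, 19.7, 19.1 and 20.4 with tazemetostat and 20.6, 19.6 and 18.8 with valemetostat. All inhibitor libraries lie above DMSO, and Tigar rose by 0.22 ± 0.08 and 0.21 ± 0.08 (edgeR adjusted p = 0.0348 and 0.0395). These calls are near the threshold and held in 7 and 6 of 15 alternatives. With tazemetostat Tigar lost its call without any 1 of DMSO 1, DMSO 2, DMSO 3, tazemetostat 1 and tazemetostat 3 (edgeR adjusted p = 0.0618, 0.0637, 0.0849, 0.0727 and 0.0893). With valemetostat it did so without DMSO 1, DMSO 2, DMSO 3, valemetostat 1 or valemetostat 2 (0.063, 0.0664, 0.0885, 0.137 and 0.0727). On log2(TPM + 1) values Tigar differed by 0.07 and 0.09 (limma adjusted p = 0.757 and 0.693). Its exons overlap those of Platr31 on the opposite strand.

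Of the 5 DNA repair members, Rrm2b fell with both inhibitors and the rest were not called. Rrm2b, the p53-induced small subunit of ribonucleotide reductase that supplies nucleotides outside S phase, was at 21, 19 and 20.3 CPM in DMSO, 14.4, 14.8 and 15.9 with tazemetostat and 15.5, 15.7 and 16.8 with valemetostat. The DMSO libraries are all higher than the 6 others, and the changes were -0.42 ± 0.09 and -0.33 ± 0.09 on the log2 scale (edgeR adjusted p = 0.000353 and 0.00336). The calls held in 14 of 15 alternatives each and were lost on log2(TPM + 1) values (limma adjusted p = 0.0542 and 0.123). Exons of Rrm2b overlap those of Gm49085 on the opposite strand. Among nucleotide excision repair genes, the damage sensor Xpc differed by -0.13 ± 0.07 and -0.14 ± 0.07 and the nuclease gene Ercc5 by 0.16 ± 0.11 and 0.23 ± 0.11. Ddb2, a sensor of ultraviolet damage, differed by -0.03 ± 0.11 with each inhibitor, and its exons overlap those of Acp2 on the opposite strand. Acp2 passed the filter on low counts, so the value of Ddb2 is uncertain. The bypass polymerase gene Polk differed by -0.02 ± 0.09 and 0.04 ± 0.09. Ercc5 was called with valemetostat in 1 of 15 alternatives, without valemetostat 1 (edgeR adjusted p = 0.0369).

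Cell death members moved in both directions. Fas, the death receptor on activated B cells, was at 68.8, 73.7 and 80.9 CPM in DMSO, 108, 106 and 111 with tazemetostat and 110, 113 and 115 with valemetostat. Every inhibitor library lies above every DMSO library by a wide gap. Fas rose by 0.54 ± 0.05 (a ratio of 1.45) and 0.60 ± 0.05 (1.51) on the log2 scale (edgeR adjusted p = 1.49e-08 and 2.45e-09). With the length and GC offset the changes of Fas, whose transcript has 1481 nt, were 0.43 and 0.48 (edgeR adjusted p = 5.8e-09 and 8.55e-10). Ei24, an endoplasmic reticulum protein gene first found as etoposide-induced, was at 59.3, 58.4 and 57.9 CPM in DMSO, 81.5, 78.5 and 82.5 with tazemetostat and 79.8, 82.4 and 77 with valemetostat. Its DMSO libraries are close together and far below the others, and it rose by 0.47 ± 0.05 and 0.45 ± 0.05 (edgeR adjusted p = 8.5e-08 and 1.75e-07). Both Fas and Ei24 were called in all 15 alternatives of both comparisons. The exons of Ei24 overlap those of Gm26787 on the opposite strand.

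The death genes that fell did so with tazemetostat. Pidd1, a death-domain protein that assembles the caspase-2 platform, was at 14, 14.6 and 12.5 CPM in DMSO, 11.9, 10.1 and 9.13 with tazemetostat and 12, 10.8 and 12.5 with valemetostat. The tazemetostat libraries are below DMSO, and 1 valemetostat library is at the DMSO minimum. It fell by 0.40 ± 0.11 (edgeR adjusted p = 0.00633) and differed by -0.22 ± 0.11 with valemetostat (edgeR adjusted p = 0.129). Without tazemetostat 3 the Pidd1 change was -0.31 and not called (edgeR adjusted p = 0.0508). Apaf1, the scaffold of the apoptosome, was at 30.9, 31.8 and 32.4 CPM in DMSO, 30.1, 25.7 and 25.9 with tazemetostat and 26.7, 27.8 and 33.4 with valemetostat. Tazemetostat 1 is close to DMSO and valemetostat 3 is above it. Apaf1 fell by 0.22 ± 0.08 with tazemetostat (edgeR adjusted p = 0.0424) and differed by -0.11 ± 0.08 with valemetostat (edgeR adjusted p = 0.304). Its call held in 7 of 15 alternatives, and was lost with the length and GC offset, at -0.14 (edgeR adjusted p = 0.178), and without any 1 of DMSO 1, DMSO 2, DMSO 3, tazemetostat 2 and tazemetostat 3 (0.0559, 0.0851, 0.105, 0.158 and 0.165).

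Tnfrsf10b, the TRAIL death receptor gene, was the lowest tested member per length, at 1.94 ± 0.146 TPM in DMSO (SD, n = 3). It had the widest interval of the set, with log2 differences of -0.37 ± 0.19 (95% interval -0.76 to 0.02) and -0.36 ± 0.19 (-0.75 to 0.03), neither called (edgeR adjusted p = 0.125 and 0.143). Aen, an apoptosis-enhancing nuclease, differed by -0.05 ± 0.07 and 0.14 ± 0.07. With the length and GC offset Aen was called higher with valemetostat, at 0.19 (edgeR adjusted p = 0.0405), as it was without DMSO 1 (0.0453). Perp, a desmosomal and death gene, had 0 counts in all 9 libraries, and Eda2r, a TNF receptor family member, had 1 count, in tazemetostat 3. A floor of 3 counts corresponds to 0.0633 to 0.087 CPM per library, so Perp, Phlda3 and Eda2r were not detectable above that level.

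Over the 15 tested members called with neither inhibitor, log2 differences ran from -0.37 (Tnfrsf10b) to 0.21 (Psrc1) with tazemetostat and from -0.36 (Tnfrsf10b) to 0.23 (Ercc5) with valemetostat. The 95% interval lay within 0.25 of 0 for 7 of them with tazemetostat and for 5 with valemetostat. For the others the interval reached past 0.25 in at least 1 direction.

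**Figure D4:**
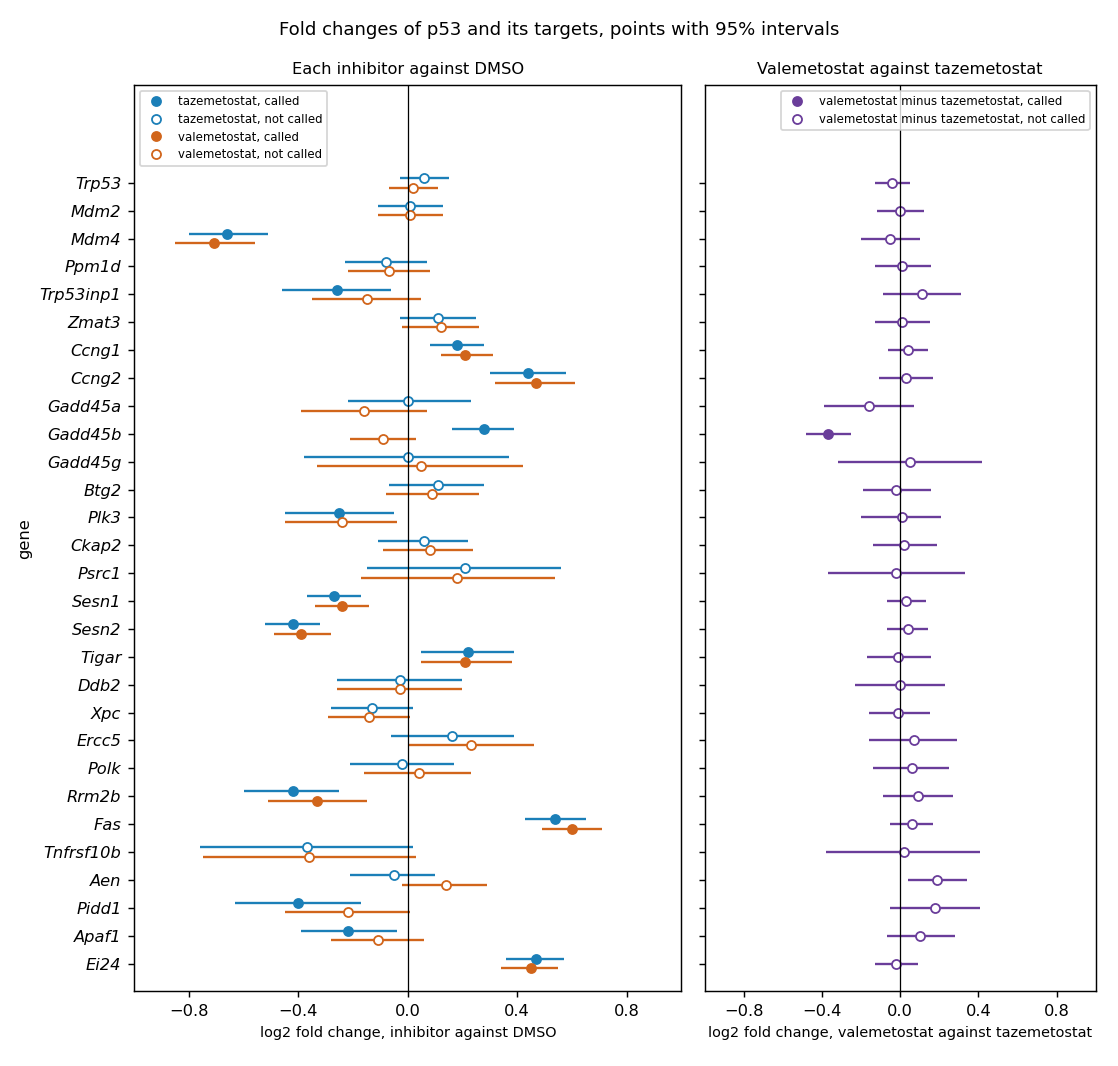
Log2 fold changes of the 29 tested members with 95% intervals, each inhibitor against DMSO on the left and valemetostat against tazemetostat on the right; filled points are called at edgeR adjusted p under 0.05. On the left the 2 compounds sit close together for most genes, and on the right Gadd45b alone is filled, at -0.37.

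Tazemetostat and valemetostat differ in that valemetostat also inhibits EZH1, and the labels give no doses, so whether they are matched is not known. Compared directly, 1 of 29 members was called lower with valemetostat (0.254% of all genes) and 0 higher (0.0636% of all genes), which is 3.45% of tested members against 0.318% of all genes in either direction. That member was Gadd45b, at -0.37 ± 0.06 on the log2 scale (95% interval -0.48 to -0.25, edgeR adjusted p = 0.00186), lower in all 3 valemetostat libraries than in all 3 tazemetostat libraries. The call held in 14 of 15 alternatives. It was lost on log2(TPM + 1) values, where the difference was also -0.37 (limma adjusted p = 0.254) and 1 of all genes was called. The background moved with the libraries too, since leaving out 1 gave 2 to 12 of all genes higher and 7 to 61 lower. By edgeR, 1 member was higher and 1 lower at an unadjusted p under 0.05, and DESeq2 called 0 higher and 1 lower.

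For the 28 members without a call between the compounds, every 95% interval lay within 0.5 of 0, from a lowest bound of -0.39 (Gadd45a) to a highest of 0.42 (Gadd45g), and 18 lay within 0.25. The groups did not overlap for 3 of 29 members (14.1% of all genes): Gadd45b, Gadd45a and Aen. Aen was the member with the largest positive difference, 0.19 ± 0.07, and did not pass (edgeR adjusted p = 0.447). The genes called with tazemetostat alone against DMSO, apart from Gadd45b, did not differ between the compounds beyond the test: Trp53inp1 by 0.11 ± 0.10, Plk3 by 0.01 ± 0.10, Pidd1 by 0.18 ± 0.11 and Apaf1 by 0.10 ± 0.08 (edgeR adjusted p = 0.843, 0.995, 0.744 and 0.823).

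**Figure D5:**
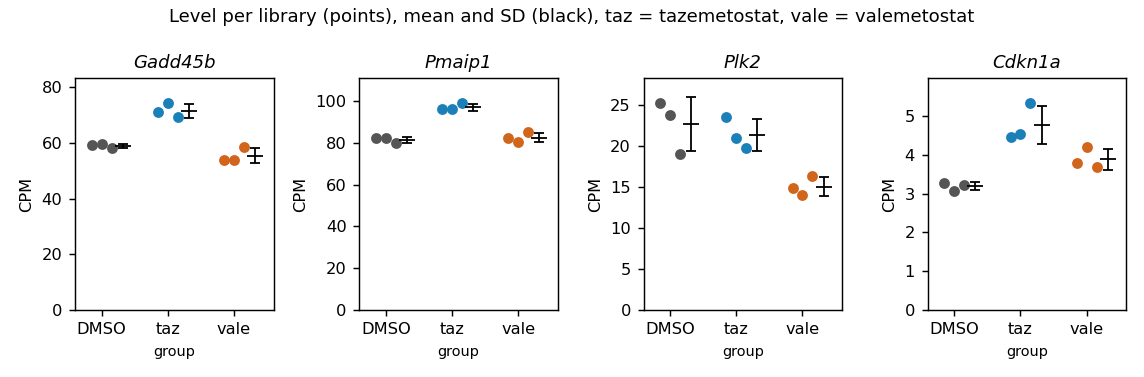
CPM in every library (points), with group mean and SD in black, of Gadd45b and of the p53 targets Pmaip1, Plk2 and Cdkn1a, which are not among the 32 members; axes start at 0. Gadd45b and Pmaip1 are highest in the tazemetostat libraries, Plk2 is lowest in the valemetostat libraries, and Cdkn1a is above DMSO in all 6 inhibitor libraries.

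The other genes of the pathway were also called in both directions. Of 34 further p53 targets 27 were tested, and 6 were called higher and 4 lower with tazemetostat and 4 higher and 6 lower with valemetostat, with medians of 0.06 and 0.02 on the log2 scale. That is 37% of them in each comparison, near the 38.1% and 39.2% of all genes. The length and GC offset raised the 4 lower with tazemetostat to 7, while the share of all genes went from 18.2% to 19.2%. On log2(TPM + 1) values limma called 2 and 1 higher. Of all genes it called 9.36% and 9.47% higher, where edgeR on counts called 19.9% and 20.5%. Without valemetostat 2 the 6 lower became 3, and the share of all genes called lower went from 18.7% to 14.2%. The 5 of them with the smallest p were Cyfip2, Icosl, Plk2, Pmaip1 and Cd80. Cyfip2, an actin regulator, fell by 0.50 ± 0.05 and 0.49 ± 0.05, and Icosl, a costimulatory ligand, rose by 0.58 ± 0.06 and 0.52 ± 0.06. Cd80, another costimulatory ligand, fell by 0.20 ± 0.06 and 0.27 ± 0.06, and its tazemetostat call was lost in 1 of 15 alternatives, without tazemetostat 3 (edgeR adjusted p = 0.0706).

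Plk2 and Pmaip1 were the 2 further targets called between the compounds, both lower with valemetostat. Pmaip1 (Noxa, a death protein that binds MCL1) was at 82.4, 82.5 and 80 CPM in DMSO, 96.3, 96.2 and 99.1 with tazemetostat and 82.3, 80.5 and 85.1 with valemetostat, so that only the tazemetostat libraries stand apart. It differed by -0.23 ± 0.05 between the compounds (edgeR adjusted p = 0.0275). Plk2, a kinase related to Plk3, was at 25.2, 23.8 and 19 CPM in DMSO, 23.5, 20.9 and 19.7 with tazemetostat and 14.8, 14 and 16.3 with valemetostat, and differed by -0.51 ± 0.10 (edgeR adjusted p = 0.019). Both calls between the compounds depended on the libraries: Pmaip1 held in 7 and Plk2 in 10 of 15 alternatives. The number of these targets called lower fell to 0 without tazemetostat 1, tazemetostat 2, valemetostat 1 or valemetostat 2 and to 1 without tazemetostat 3. Of all genes, 32 were lower in the main fit and 9, 16, 8, 7 and 61 at these settings. Against DMSO, Plk2 was called with valemetostat alone, at -0.60 ± 0.10 (edgeR adjusted p = 3.99e-05), in all 15 alternatives. Pmaip1 was called with tazemetostat alone, at 0.25 ± 0.05 (edgeR adjusted p = 0.000206), in 14 of 15.

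The best-known targets Cdkn1a, Bax and Bbc3 were picked after their values were seen. Cdkn1a (p21, the CDK inhibitor of p53 arrest) was low, at 3.27, 3.07 and 3.22 CPM in DMSO, 4.46, 4.54 and 5.34 with tazemetostat and 3.8, 4.2 and 3.68 with valemetostat. It rose with tazemetostat by 0.58 ± 0.17 (edgeR adjusted p = 0.00842) and differed by 0.29 ± 0.17 with valemetostat (edgeR adjusted p = 0.198). Between the compounds Cdkn1a was not called, at -0.29 ± 0.17 for valemetostat against tazemetostat (edgeR adjusted p = 0.701). The death genes Bax and Bbc3 (Puma) were not called higher: Bax differed by -0.14 ± 0.06 and -0.13 ± 0.06 (edgeR adjusted p = 0.0518 and 0.0663). Bax was called lower in 7 and 5 of 15 alternatives, among them the length and GC offset, at -0.23 and -0.25 (edgeR adjusted p = 0.000159 and 5.29e-05). Calls of Bax were also made without DMSO 2 (0.0359 and 0.0486), without DMSO 3 (0.0222 and 0.0309) and, with tazemetostat, without tazemetostat 3 (0.0236). Bbc3 fell with tazemetostat by 0.22 ± 0.08 (edgeR adjusted p = 0.0234) and differed by -0.09 ± 0.08 with valemetostat (edgeR adjusted p = 0.354). Its call held in 11 of 15 alternatives and was lost without DMSO 1, tazemetostat 2 or tazemetostat 3 (edgeR adjusted p = 0.136, 0.0992 and 0.0589) and on log2(TPM + 1) values (limma adjusted p = 0.455). Bbc3 was also not called between the compounds, at 0.13 ± 0.08 (edgeR adjusted p = 0.715).

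Among 24 tested regulators and partners of p53, 3 were called higher and 8 lower with tazemetostat and 5 higher and 8 lower with valemetostat. That is 45.8% and 54.2% of them, beside 38.1% and 39.2% of all genes. By direction, 19.9% of all genes were higher and 18.2% lower with tazemetostat, and 20.5% and 18.7% with valemetostat. Chek1, lower with both inhibitors, is counted here and among the cell cycle genes below. The 5 higher with valemetostat became 3 without DMSO 2, valemetostat 1 or valemetostat 3, and with the length and GC offset. Shares of all genes called higher at these settings were 17.2%, 18.3%, 18.1% and 19%. On log2(TPM + 1) values limma called 1 regulator higher in each comparison, beside 9.36% and 9.47% of all genes. Ppp1r13b (ASPP1, which directs p53 to death genes) was at 12.7, 13.9 and 14.3 CPM in DMSO, 23.6, 25.1 and 23.3 with tazemetostat and 22.5, 25.2 and 28.1 with valemetostat. It rose by 0.82 ± 0.09 and 0.89 ± 0.09 (edgeR adjusted p = 5.71e-08 and 1.25e-08), more than any member of the p53 set. Trp73, a p53 relative, rose by 0.47 ± 0.08 and 0.33 ± 0.09, calls that were lost on log2(TPM + 1) values (limma adjusted p = 0.199 and 0.246). Trp63, another relative but not among the 5 with the smallest p, was called lower with both. It differed by -0.25 ± 0.06 and -0.26 ± 0.06 (edgeR adjusted p = 0.00357 and 0.00222). The break-response genes Atm and Trp53bp1 fell, Atm by 0.41 ± 0.07 with each inhibitor and Trp53bp1 by 0.37 ± 0.06 and 0.34 ± 0.06. With the length and GC offset these were smaller, Atm at -0.27 and -0.22 and Trp53bp1 at -0.21 and -0.15, and still called. Rpl11, a ribosomal protein that binds MDM2, was called higher at 0.12 ± 0.05 and 0.21 ± 0.05, which held in 6 and 13 of 15 alternatives, but with that offset it was at -0.04 and 0.03 and called with neither (edgeR adjusted p = 0.351 and 0.458), and reads of its copies may be shared. Rpl11 also lost its tazemetostat call without DMSO 1, DMSO 2, tazemetostat 1, tazemetostat 2 or tazemetostat 3 (edgeR adjusted p = 0.0525, 0.234, 0.0717, 0.0551 and 0.181). Cdkn2a, the source of the MDM2 inhibitor ARF, had 0 counts in all 9 libraries.

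Cell cycle genes that p53 is known to lower were also called in both directions, more of them lower than higher. Of 15, all tested, 3 were called higher and 4 lower with tazemetostat and 2 higher and 6 lower with valemetostat, with medians of -0.07 and -0.11. The called shares were 46.7% and 53.3%, beside 38.1% and 39.2% of all genes. By direction, 19.9% of all genes were called higher and 18.2% lower with tazemetostat, and 20.5% and 18.7% with valemetostat. The length and GC offset gave 8 of the 15 lower in each comparison, beside 19.2% and 19.6% of all genes. On log2(TPM + 1) values limma called 0 and 1 of the 15 higher, beside 9.36% and 9.47% of all genes. Without tazemetostat 2 the 3 higher with tazemetostat became 1, and the share of all genes went from 19.9% to 17.4%. The transcription factor genes Mybl2 and Foxm1 fell, by 0.25 ± 0.05 and 0.29 ± 0.05 and by 0.31 ± 0.06 and 0.32 ± 0.06, as did the checkpoint kinase gene Chek1 (0.22 ± 0.06 and 0.23 ± 0.06) and the helicase gene Mcm5 (0.16 ± 0.05 and 0.17 ± 0.05). Cdk1, the mitotic kinase, rose by 0.21 ± 0.05 and 0.25 ± 0.05, the former lost on log2(TPM + 1) values (limma adjusted p = 0.242). Between the compounds 0 regulators and 0 of these cell cycle genes were called by edgeR, against 1 regulator higher by DESeq2 and 1 lower by edgeR without tazemetostat 3. At an unadjusted p under 0.05, 3 regulators were higher and 0 lower, and 0 cell cycle genes moved either way.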

How the data were processed

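Libraries of poly(A) RNA were read as pairs of 150 nt, per the labels' protocols. Whole-number counts per gene and log2(TPM + 1) values were deposited by the authors. Per the submitters' processing notes the build was mm9, while aligner, counter, strand setting and annotation were not given in the sources used here. In each library 15 to 48 genes with 0 counts have a TPM over 0.

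Counts were fitted with edgeR 4.0.16 (R 4.3.3; TMM, robust quasi-likelihood F test, all 9 libraries in 1 fit of 3 groups). filterByExpr with a minimum count of 10 and total of 15 kept 12580 genes. Each SE is the size of the log2 fold change divided by the root of its F. The script was tested on simulated data. Alternatives were DESeq2 1.42.0, limma 3.58.1 on log2(TPM + 1), other scalings and filters, the replicate number as a block, only the compared groups, each library left out, and an offset per library from a 5-df spline over the length and GC of GENCODE M21 transcripts, fitted on genes of at least 3 log2 CPM. Strand overlaps come from GENCODE M21 and promoters from RefSeq (GRCm38.p6). Of the overlapping genes, Tctex1d4 and Acp2 passed the filter on low counts, and E230016M11Rik, Platr31, Gm49085 and Gm26787 did not.

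All 32 members are reported, with values in every library for called members and for Trp53, Mdm2 and Mdm4, and up to 5 called genes with the smallest p of each of 3 pathway lists. Members and lists were chosen with earlier results of these data known. The labels do not say that replicates are separate cultures, so the p-values may rest on technical spread only. Chi-square per degree of freedom between replicates was 5.26 to 13.3. Floors cover counting error only. No protein sequences were used here.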

Additional observations from a re-analysis of the deposited data

How the results depend on the processing

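Over 15 alternatives per comparison and 1305 member values, 1243 kept their side of the threshold (values near 0 with no call may change sign among these), 48 lost a call, 12 gained one and 2 became calls of the opposite sign. These 2 are Mdm2 at -0.25 with tazemetostat and -0.25 with valemetostat on log2(TPM + 1) values, and outside the set Rpl11 was at -0.04 with tazemetostat under the length and GC offset. On log2(TPM + 1) values 3 members were called higher with tazemetostat, 3 higher with valemetostat, and 0 lower between the compounds. There the calls over all genes were 1177 higher and 1946 lower (2508 and 2286 by edgeR) with tazemetostat and 1191 and 2117 (2577 and 2350) with valemetostat, and the median of all genes was -0.07. With the length and GC offset 7 members were called lower with valemetostat (19.6% of all genes). Leaving out 1 library gave 4 to 7 members lower with tazemetostat. There were 4 without tazemetostat 3 (13.9% of all genes) and 5 without DMSO 2 (14% of all genes). Between the compounds the calls over all genes, 8 higher and 32 lower, ranged over the alternatives from 0 to 21 and from 1 to 72. Of the other targets, regulators and cell cycle genes, log2(TPM + 1) values left 2, 1 and 0 called higher with tazemetostat and 1, 1 and 1 with valemetostat. Beside these stand 9.36% and 9.47% of all genes. The offset gave 7 targets and 8 cell cycle genes lower with tazemetostat (19.2% of all genes) and 3 regulators higher with valemetostat (19% of all genes). The cause of these changes was not tested. Same-numbered libraries deviated together by correlations of -0.04 to 0.08, and differently numbered ones by -0.08 to 0.06. Such values cannot show whether same-numbered libraries were handled together, and no source used here says what the numbers mark. With the replicate block 6 members were called higher and 6 lower with tazemetostat, 4 and 4 with valemetostat, and 0 and 1 between the compounds. The matching shares of all genes were 19% and 17%, 19.6% and 17.8%, and 0.0556% and 0.199%.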
